A study of Mus musculus with 4 samples.

Results

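The Tssk genes encode the testis-specific serine kinases, a small branch of the protein kinases related to the AMP-activated kinase. They are known from spermatids and sperm, where they phosphorylate structural proteins of the tail and of the cytoplasm that is shed, and mouse males without Tssk6, or without Tssk1 and Tssk2 together, are infertile. The 6 genes of the family, Tssk1, Tssk2, Tssk3, Tssk4, Tssk5 and Tssk6, were chosen by name from the 53465 genes of a table of read counts, and no other gene name in it starts with Tssk. The counts come from RNA sequencing of whole testes at postnatal day 18, 2 libraries being wild type and 2 from a conditional knockout of Sympk (cKO), a gene that encodes symplekin, a scaffold of mRNA 3' end processing. The knockout was made with Stra8-Cre, a recombinase of male germ cells before and at meiotic entry, so somatic cells of the testis keep the gene. All mice were of a C57BL/6-ICR mixed background, and neither the alleles of the controls nor how many animals a library pools is stated in the labels, which call the wild-type mice controls as well. The comparison asks how transcript levels differ between the genotypes. Whether each library is a different animal is not stated, so p-values speak for the spread among 4 samples, and that spread may be technical.

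At this age the first wave of spermatogenesis has reached meiosis, and spermatids are the cells best known for these kinases. The libraries held 32730868 to 41584389 counts. Spermatid markers were uneven in wild type. Among the late chromatin genes, Prm1 and Tnp2 had 0 counts in both wild-type libraries, Prm2 was at 0.0792 and 0 CPM (counts per 1e6 counts, scaled with TMM factors) and Tnp1 at 0.132 and 0.0562 CPM. In cKO these 4 genes had 0 to 8 counts per library. Other spermatid markers were present in wild type, among them the linker histone gene Hils1 at 0.713 and 0.928 CPM, Akap4 at 4.38 and 6.19 CPM and Actl7b at 53.7 and 54.7 CPM. The listed markers of pachytene spermatocytes summed to 8409 and 8862 CPM in wild type and to 137.1 and 170.1 CPM in cKO. Those of Sertoli cells summed to 4312 and 4764 CPM in wild type and to 9378 and 10333 CPM in cKO. Sympk itself was at 225.1 and 191.9 CPM in wild type and 171.4 and 173.1 CPM in cKO, and this difference did not pass the threshold (log2 fold change -0.28, SE 0.141). Its adjusted p was 0.132 in the quasi-likelihood test of edgeR, with p-values adjusted by Benjamini-Hochberg over all genes tested, as for every adjusted p here. The deleted stretch of Sympk is not given, so this count over the whole gene does not check the labels. Mitochondrial genes took 4.93% and 4.01% of wild-type counts and 10.2% and 8.81% of cKO counts, and the part of this in the results was not tested.

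All 6 genes had a lower mean in the cKO testes, a direction kept under every scaling tried. For each of the 5 tested genes the wild-type and cKO libraries did not overlap. Those of Tssk5 did not either, but there 2 counts in wild-type replicate 2 stood against 0 in cKO. Tssk1, Tssk2, Tssk3 and Tssk4 fell, Tssk6 did not pass the test, and Tssk5 had too few counts to be tested. Over all 21822 genes tested, 34.3% were called lower, 29.2% higher and 63.4% either way, and 83.8% had libraries that did not overlap between the genotypes, so lower values without overlap were common in this comparison. The median log2 fold change of the 5 tested genes was -2.19, against -0.02 for all genes tested. Only Tssk4 reached the filter on low counts in both cKO libraries. The other tested genes passed it through the wild-type libraries, and a gene that passes in that way can hardly be anything but lower, so their number and median describe them and support nothing more. In whole testis, fewer cells of a type and less RNA per cell cannot be told apart.

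**Figure D1:**
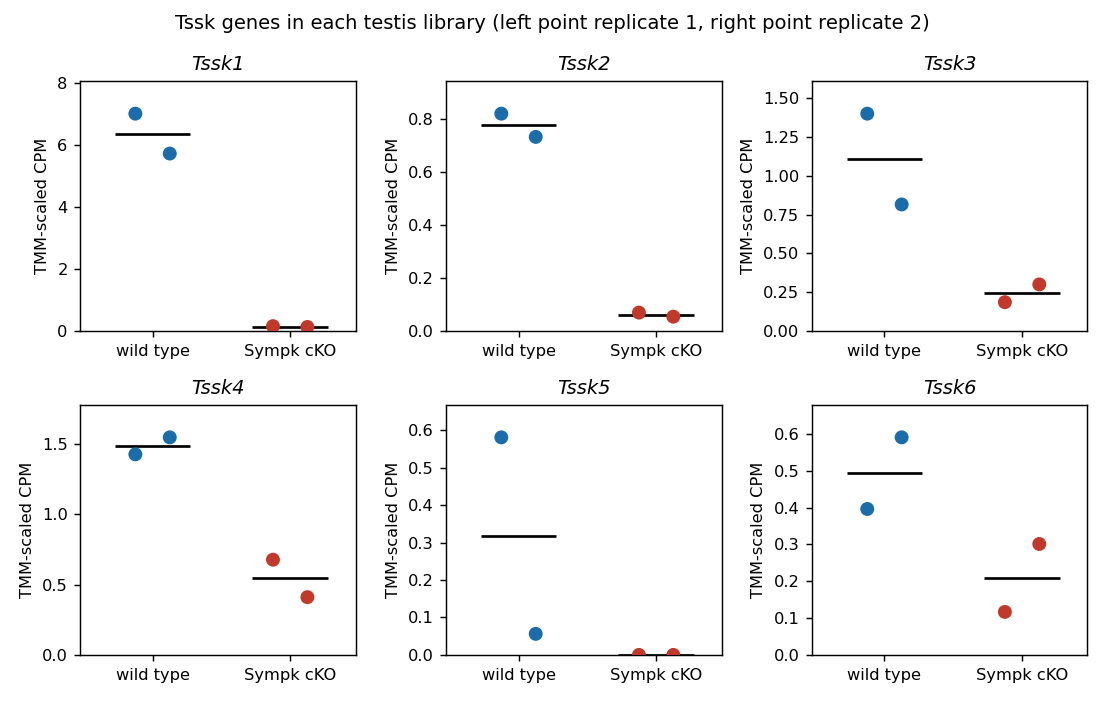
Each panel shows 1 Tssk gene, with TMM-scaled CPM on a linear axis from 0, a point per library and a line at the mean of the 2 libraries of a genotype. In every panel both wild-type points lie above both cKO points, by the widest margin for Tssk1 and by a narrow one for Tssk5 and Tssk6.

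The genes lie at 5 places in the genome. Tssk1 (ENSMUSG00000041566, chr16:17894223-17897922) and Tssk2 (ENSMUSG00000045521, chr16:17898637-17900023) are neighbours on the plus strand of chromosome 16, 715 bases apart, and each consists of 1 exon. Tssk3 (ENSMUSG00000000411, chr4:129489014-129491022, minus strand) has 2 exons, Tssk4 (ENSMUSG00000007591, chr14:55650184-55652539, plus strand) has 4 in its coding transcript, and Tssk5 (ENSMUSG00000060794, chr15:76371954-76374938, minus strand) has 8. Tssk6 (ENSMUSG00000047654, chr8:69902184-69903518, plus strand) has 1 exon. Coordinates are those of the deposited table on GRCm38, and strand and exons are those of GENCODE M21.

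The promoters of the genes that fell most, Tssk1 and Tssk2, are shown with that of Tssk6, the gene that did not pass, because cAMP response elements are a known feature of genes that CREM switches on in the male germ line. The sequences are RefSeq's on GRCm38.p6 and reach from 250 bases before the start of the gene to 50 bases into it. They lie at chr16:17893953-17894252, chr16:17898387-17898686 and chr8:69901934-69902233, each on the plus strand. Capitals mark matches, on either strand, to the full element TGACGTCA, to its shorter form TGACG, or to TGACTTCA, which differs from the full element by 1 letter and was added after these promoters had been read.
Tssk1: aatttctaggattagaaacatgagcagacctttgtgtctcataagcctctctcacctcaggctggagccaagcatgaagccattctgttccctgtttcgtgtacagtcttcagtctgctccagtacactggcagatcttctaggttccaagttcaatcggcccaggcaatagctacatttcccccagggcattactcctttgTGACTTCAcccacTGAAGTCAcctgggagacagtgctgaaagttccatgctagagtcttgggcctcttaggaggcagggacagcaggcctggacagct
Tssk2: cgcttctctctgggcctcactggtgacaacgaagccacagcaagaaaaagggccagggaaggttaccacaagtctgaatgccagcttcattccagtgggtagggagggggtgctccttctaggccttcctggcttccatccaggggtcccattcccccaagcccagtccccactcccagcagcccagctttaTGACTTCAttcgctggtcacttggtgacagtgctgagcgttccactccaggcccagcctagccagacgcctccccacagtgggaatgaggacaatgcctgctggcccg
Tssk6: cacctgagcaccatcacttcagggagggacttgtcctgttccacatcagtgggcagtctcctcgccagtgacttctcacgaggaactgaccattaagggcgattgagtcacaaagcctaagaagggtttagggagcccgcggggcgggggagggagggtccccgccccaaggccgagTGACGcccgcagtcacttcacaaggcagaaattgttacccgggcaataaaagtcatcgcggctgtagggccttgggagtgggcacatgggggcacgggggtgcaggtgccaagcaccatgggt

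None of the 5 promoters found for the family (Tssk1, Tssk2, Tssk3, Tssk4 and Tssk6) holds TGACGTCA, which 1.79% of all 32851 promoters in the table hold. The Tssk3 stretch, chr4:129490721-129491020, lies inside the gene as placed above. RefSeq's record of Tssk4 begins at 55643651, upstream of the stretch searched, chr14:55649934-55650233. For these 2 genes the bases before the outermost start were not searched. The shorter TGACG, which lies inside the full element, was found in the Tssk6 promoter alone among the 5, and 20.8% of all promoters hold it. TGACTTCA was found at 2 places in the Tssk1 promoter, in opposite orientations, and at 1 place in that of Tssk2, and 1.52% of all promoters hold it. A local alignment of the Tssk1 and Tssk2 promoters covered 132 columns, 82 of them identical (62.1%), and took in these elements. It had the highest score of the 10 pairs of promoters, 62.0 against 38.0 for the next pair, Tssk2 and Tssk3. A match is a description of the letters, and nothing about binding was measured.

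The coding sequences of Tssk1 and Tssk2 are also the most alike of the family. They were identical at 81.0% of aligned bases and shared an unbroken run of 113 identical bases, so reads from that stretch could be assigned to either gene. The other 14 pairs were identical at 59.7% to 67.0% of aligned bases, and their longest identical runs were of 9 to 14 bases.

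Tssk1, whose kinase phosphorylates the testis-specific kinase substrate Tsks, had the highest count of the family and the largest fall of the tested members. Counts of 266 and 204 in wild type stood against 7 and 5 in cKO, which is 7.02 and 5.74 CPM against 0.163 and 0.137 CPM. The cKO libraries lay close together and far below both wild-type libraries. Wild type averaged 6.38 ± 0.911 CPM and cKO 0.150 ± 0.0188 CPM (SD, n = 2), with a log2 fold change of -5.37 (SE 0.334, adjusted p = 5.9e-05, edgeR's quasi-likelihood test). The ratio of wild-type to cKO counts was 42.3, with an exact 95% interval of 24.0 to 82.5 for counting error. Of all genes tested, 6.49% had a lower log2 fold change than Tssk1.

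Tssk2, which acts with Tssk1 on Tsks, was lower as well, from a level near 1 CPM. It had 31 and 26 counts in wild type and 3 and 2 in cKO, or 0.819 and 0.731 CPM against 0.0700 and 0.0548 CPM. Both cKO libraries were at or below the level of 3 counts. The log2 fold change was -3.56 (SE 0.499, adjusted p = 1.42e-03, edgeR's quasi-likelihood test), and the count ratio was 12.3 (exact 95% interval 4.98 to 39.4). The intervals of the Tssk1 and Tssk2 ratios overlap, and the difference between the 2 folds was not tested.

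Tssk3, a kinase gene that mouse males need for fertility, was lower by less. Its counts were 53 and 29 in wild type and 8 and 11 in cKO, which is 1.40 and 0.815 CPM against 0.187 and 0.301 CPM. Relative to their mean, the wild-type libraries differed more from each other here than for Tssk1 or Tssk2. The log2 fold change of -2.19 (SE 0.481, adjusted p = 8.33e-03, edgeR's quasi-likelihood test) ran from -1.74 to -2.55 when 1 library at a time was left out, and the call held each time (adjusted p = 0.0119 to 0.0446). The count ratio was 4.66 (exact 95% interval 2.81 to 8.14).

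Tssk4, whose kinase phosphorylates the outer dense fibre protein Odf2 of the sperm tail, had the highest counts of the family in the cKO testes. It had 54 and 55 counts in wild type and 29 and 15 in cKO, which is 1.43 and 1.55 CPM against 0.677 and 0.411 CPM. The wild-type libraries agreed closely and the cKO libraries differed. The log2 fold change was -1.43 (SE 0.371, adjusted p = 0.0156, edgeR's quasi-likelihood test) and the count ratio 2.68 (exact 95% interval 1.87 to 3.89). With wild-type replicate 2 left out it no longer passed (-1.39, adjusted p = 0.0531 in edgeR), nor with cKO replicate 2 left out (-1.13, adjusted p = 0.0770).

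Tssk6, whose kinase needs the cochaperone Tsacc and HSP90 to become active, did not pass the test. It had 15 and 21 counts in wild type and 5 and 11 in cKO, or 0.396 and 0.591 CPM against 0.117 and 0.301 CPM. The nearest libraries of the genotypes, wild-type replicate 1 and cKO replicate 2, were 15 and 11 counts. The log2 fold change was -1.25 (SE 0.576, adjusted p = 0.101, edgeR's quasi-likelihood test), and it became -0.70 without cKO replicate 1 and -2.05 without cKO replicate 2. It passed under 1 alternative, the scaling to Sertoli cell markers (-2.34, adjusted p = 0.0153 in edgeR), where the median of all genes tested was -1.14.

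Tssk5, the member with the lowest counts, had 22 and 2 counts in wild type and 0 in both cKO libraries. Almost all of its wild-type counts came from wild-type replicate 1, and the 2 counts of the other wild-type library lie below the floor of 3 counts set for a count of 0. Against that floor per cKO library, a mean of 0.0761 CPM, the wild-type mean of 0.319 ± 0.371 CPM (SD, n = 2) was at least 4.19-fold higher. It failed the filter on low counts. Without the filter, edgeR's quasi-likelihood test gave an adjusted p of 0.0340, which rose to 0.269 without wild-type replicate 1, 0.148 without cKO replicate 1 and 0.112 without cKO replicate 2, and to 0.0658 under limma-voom.

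**Figure D2:**
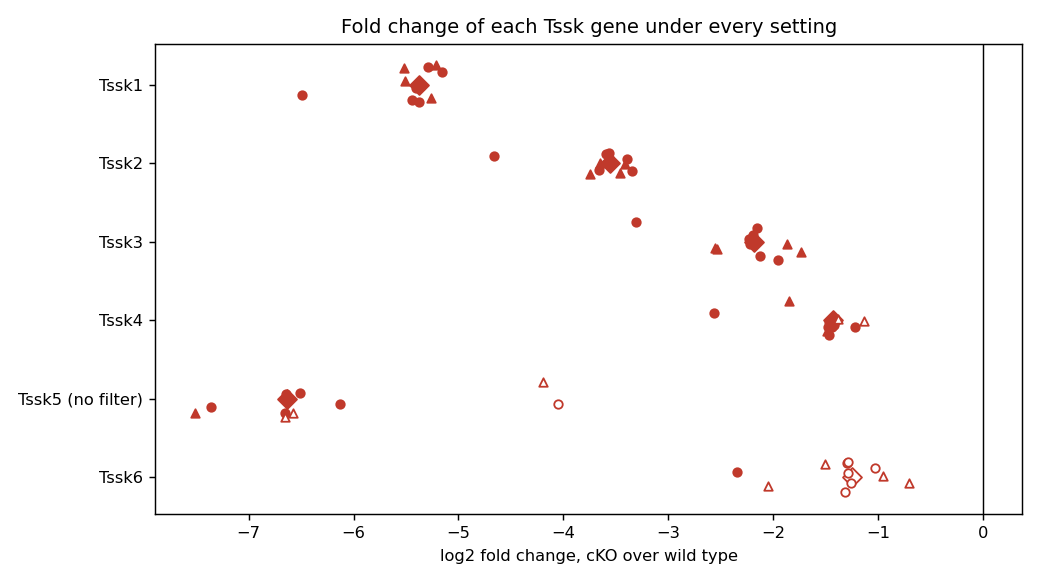
The horizontal axis is the log2 fold change of cKO over wild type for each Tssk gene, with a diamond for the value in the text, circles for other tests, scalings and filters, and triangles for 1 library left out. Filled symbols passed an adjusted p of 0.05. Every symbol lies below 0, and Tssk4, Tssk5 and Tssk6 have open symbols. The Tssk5 values were fitted without the filter on low counts against libraries at 0 and are no bound on its change.

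Levels of different genes can be compared only per length, and the lengths behind the deposited FPKM (fragments per kilobase per 1e6 fragments) do not serve every member. For Tssk4 that length is 5370 bases, although the whole gene spans fewer. Over the 14763 genes with more than 100 counts in wild-type replicate 1, 6.46% had a length behind the FPKM above the span of the gene. By deposited FPKM the wild-type order was Tssk1 (1.59 ± 0.190), Tssk3 (0.798 ± 0.280), Tssk2 (0.517 ± 0.0291), Tssk6 (0.343 ± 0.103), Tssk4 (0.257 ± 0.0208) and Tssk5 (0.189 ± 0.219), as mean and SD of 2 libraries. The libraries of Tssk4 overlapped with those of Tssk6 and of Tssk5 on this scale, and no other neighbours in the order overlapped.

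In cKO the order by deposited FPKM was Tssk3 (0.208 ± 0.0779), Tssk6 (0.172 ± 0.113), Tssk4 (0.109 ± 0.0328), Tssk2 (0.0484 ± 0.00616), Tssk1 (0.0437 ± 0.00344) and Tssk5 (0), with overlap between Tssk3 and Tssk6, Tssk6 and Tssk4, and Tssk2 and Tssk1.

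Divided by the merged exons of GENCODE M21 instead, a choice made after the lengths had been seen, Tssk4 moved up from rank 5 to rank 2. Tssk1 was at 1.72 ± 0.246 CPM per kilobase in wild type, Tssk4 at 0.866 ± 0.0497, Tssk3 at 0.865 ± 0.323, Tssk2 at 0.558 ± 0.0446, Tssk6 at 0.370 ± 0.103 and Tssk5 at 0.154 ± 0.179. On this scale Tssk4 and Tssk3 did not differ beyond their spread, while no other neighbours in the order overlapped between libraries. In cKO the order on the same scale was Tssk4 (0.317 ± 0.110 CPM per kilobase), Tssk3 (0.191 ± 0.0632), Tssk6 (0.157 ± 0.0977), Tssk2 (0.0450 ± 0.00779), Tssk1 (0.0406 ± 0.00507) and Tssk5 (0). The libraries of Tssk4 lay above those of Tssk3 there, by 0.239 against 0.235 CPM per kilobase at the nearest, while Tssk3 overlapped with Tssk6, and Tssk2 with Tssk1. GENCODE counts 3700 bases for Tssk1, against 1451 in RefSeq. Divided by the shorter record, its counts give 4.40 CPM per kilobase in wild type. That is an upper limit, because the length behind the deposited FPKM is 3700 bases and counts from outside the shorter record may be included.

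The makeup of the family within a library needs no scaling between libraries. Tssk1 made up 60.3% of the 441 Tssk counts in wild-type replicate 1 and 60.5% of 337 in replicate 2 (exact 95% intervals 55.6% to 64.9% and 55.1% to 65.8%). In cKO it made up 13.5% of 52 counts and 11.4% of 44 (5.59% to 25.8% and 3.79% to 24.6%). The share of Tssk4 went the other way, from 12.2% and 16.3% to 55.8% and 34.1%, and Tssk4 became the member with the most counts in both cKO libraries. Its own counts were lower there, at 29 and 15 against 54 and 55 in wild type. Tssk6 gave 15 of 441 and 21 of 337 Tssk counts in wild type and 5 of 52 and 11 of 44 in cKO. The intervals of the Tssk1 share do not overlap between the genotypes. With 2 libraries a group no permutation test of them can pass, and the intervals cover counting error only. Summed over the family, the level was 11.6 and 9.48 CPM in wild type and 1.21 and 1.20 CPM in cKO.

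**Figure D3:**
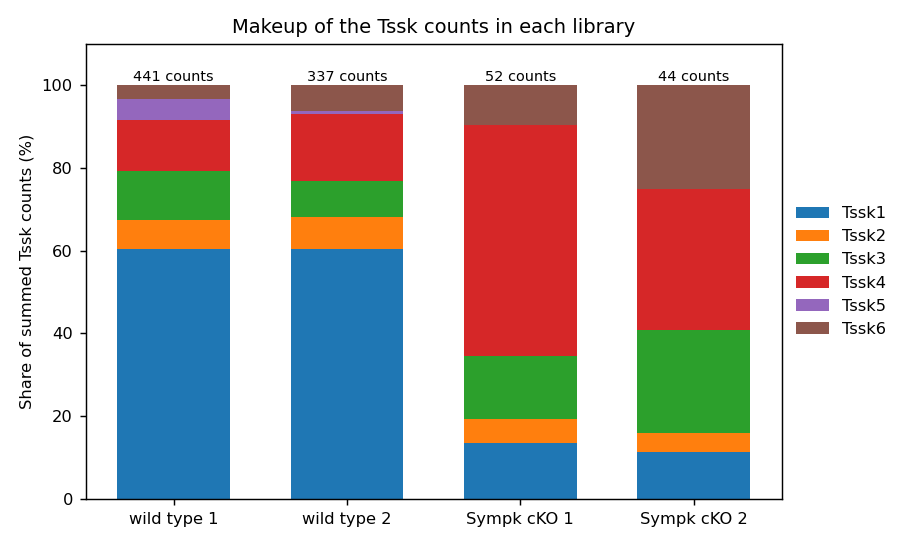
Stacked bars give the share of each Tssk gene, in percent, in the summed Tssk counts of each library, with that sum printed above the bar. Tssk1 fills most of both wild-type bars, and Tssk4 is the largest part of both cKO bars.

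The genes beside the family members were examined because the counting may not have used strand. Tssk1 and Tssk2 lie between Dgcr2 and Dgcr14, both on the opposite strand. Dgcr2 was at 60.4 and 81.6 CPM in wild type and 89.3 and 54.7 CPM in cKO (log2 fold change 0.02, SE 0.266), and Dgcr14 at 30.5 and 31.7 CPM against 33.6 and 31.6 CPM (0.07, SE 0.141). The sign of Dgcr2 also turned under 6 other alternatives. Neither passed the test, at distances of 78 bases from Tssk1 and 688 bases from Tssk2. Relative to the Sertoli cell markers both values were negative, -1.11 and -1.05. The median of all genes tested was -1.14 on that scale, so both lay near it, and negative values there were common among all genes.

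The exons of Dgcr2 share 63 bases with Tssk1 in GENCODE M21, which is 1.70% of the exon of Tssk1. The deposited coordinates place these genes 78 bases apart instead, so whether the counts include that overlap is not known. Tssk6 shares more: exons of Ndufa13, which encodes a subunit of mitochondrial complex I, cover 375 bases or 28.1% of Tssk6 on the opposite strand, and Yjefn3 overlaps it too, with 15 exon bases shared. Ndufa13 was at 47.2 and 54.0 CPM in wild type and 36.7 and 37.7 CPM in cKO (log2 fold change -0.45, SE 0.144, adjusted p = 0.0342, edgeR's quasi-likelihood test), a call lost under 6 alternatives. Yjefn3 did not pass (0.91, SE 0.397) and was negative relative to the Sertoli cell markers (-0.20). Without strand, reads of Tssk6 and of Ndufa13 over their shared bases cannot be told apart, and the Tssk6 counts are uncertain for that reason.

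Near Tssk3, Bsdc1 (-0.09, SE 0.127, positive with library totals alone) and Fam229a (-1.0, SE 0.519) did not pass the test. Within 10 kb of Tssk4, Mdp1 (0.73) and Tm9sf1 (0.85) were called higher, though negative relative to the Sertoli cell markers, and Nedd8 (-1.04) was called lower. Within 10 kb of Tssk5, Hgh1 (-0.69, SE 0.198), Mroh1 (-1.94, SE 0.175) and Gm35339 (-4.11, SE 0.235) were all called lower. Such calls were common, at 34.3% lower and 29.2% higher of all genes tested. Gm35339, 8159 bases away, had 111.9 and 79.2 CPM in wild type and 5.04 and 6.05 CPM in cKO. Of the other neighbours tested, Gm20518 (0.18), AC174678.1 (0.37) and Gatad2a (-0.03) did not pass. The first 2 were negative relative to the Sertoli cell markers, and Gatad2a was positive with library totals alone. Mdp1 lost its call without cKO replicate 1, Tm9sf1 with limma-voom and without wild-type replicate 1 or 2 or cKO replicate 1, and Hgh1 with library totals alone and without wild-type replicate 1 or cKO replicate 2.

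**Figure D4:**
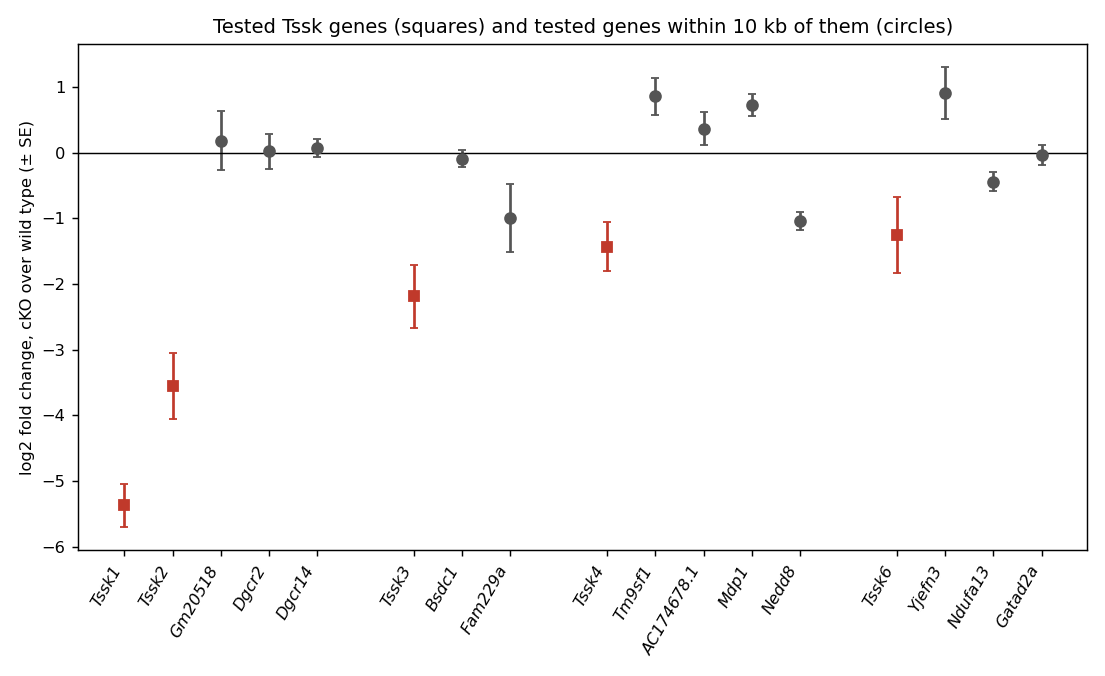
The vertical axis is the log2 fold change of cKO over wild type with its SE, for tested Tssk genes (squares) and tested genes within 10 kb of them (circles), grouped by place. Tssk1 and Tssk2 lie far below Dgcr2 and Dgcr14, which are near 0. Tssk5 was not tested and is not drawn.

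Genes that work with these kinases fell in most cases. Of 12 listed partners, cochaperones and substrates, 8 fell, 1 rose and 3 did not pass. Of all genes tested, 34.3% were called lower and 29.2% higher. The median log2 fold change of the 12 was -0.96, against -0.02 for all genes tested. Relative to the Sertoli cell markers all 12 fell, on a scale where 12998 of all 21822 genes tested fell. Tsacc, the cochaperone of Tssk6, was at 35.7 and 37.0 CPM in wild type and 2.19 and 2.27 CPM in cKO, a fall of -4.02 (SE 0.174). Tsks, the substrate of Tssk1 and Tssk2, was at 3.54 and 2.95 CPM against 0.327 and 0.766 CPM (-2.58, SE 0.435). The substrates Odf2, at 998.6 and 856.8 CPM against 134.6 and 131.7 CPM (-2.80, SE 0.161), and Spag16, a gene of the sperm axoneme, at 109.3 and 102.8 CPM against 0.514 and 0.849 CPM (-7.29, SE 0.262), fell too.

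Of the HSP90 genes, Hsp90aa1, the inducible form that is abundant in germ cells, went from 1487 and 1609 CPM to 252.6 and 246.6 CPM (-2.63, SE 0.158). Hsp90ab1, the constitutive form, was at 1071 and 1296 CPM against 1658 and 1503 CPM and did not pass (0.42, SE 0.177, adjusted p = 0.0807, edgeR's quasi-likelihood test). Relative to the Sertoli cell markers it was lower, at -0.70 (adjusted p = 0.0139, edgeR). The difference between the HSP90 genes was not tested. Hspa8 (0.15) and Izumo1 (-0.31) did not pass either, and both were called lower on that scale, at -0.97 and -1.43. The histone gene H2afx (-1.09), the kinase gene Pdpk1 (-0.83) and the phosphatase gene Ppp1cc (-0.71) fell by less, and Ppp1cc lost its call without cKO replicate 2. Creb1 rose (0.42, SE 0.126), but not under the replicate block or without either cKO library, and it was at -0.70 relative to the Sertoli cell markers.

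The AMPK-related kinases are the relatives of the family. Of 18 such genes, 6 fell, 6 rose and 6 failed the test (their median was -0.27), shares near the 34.3% lower and 29.2% higher of all genes tested. Hunk (-1.76, SE 0.178), Brsk1 (-1.47, SE 0.214) and Mark2 (-1.34, SE 0.130) fell, and Sik1 rose from 24.3 and 24.1 CPM to 64.1 and 99.5 CPM (1.76, SE 0.228). Relative to the Sertoli cell markers, 12 fell and 0 rose, and Sik1 was at 0.65 without a call. On that scale 12998 of all 21822 genes tested were lower and 502 higher, so most genes fell there.

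Other kinase genes known from germ cells were lower in most cases. Of 21 tested, 15 fell, 1 rose and 5 failed the test (the median of the 21 was -2.52). Over all genes tested, 34.3% were lower and 29.2% higher, with a median of -0.02. Stk33, a kinase gene needed for sperm tails, went from 419.8 and 403.9 CPM to 3.20 and 4.49 CPM (-6.75, SE 0.231). Stkld1 fell by 6.69 on the log2 scale (SE 0.428) and Mak, a kinase gene of cilia and male germ cells, by 5.29 (SE 0.272). Cdk16 rose (1.17, SE 0.131), with a value of 0.06 and no call relative to the Sertoli cell markers.

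Regulators of the haploid gene program also fell. Of 13 genes, 11 fell, 0 rose and 2 failed the test (the median of the 13 was -3.82), against 34.3% lower and 29.2% higher of all genes tested. Gtf2a1l, which encodes a germ cell form of a general transcription factor, went from 122.6 and 138.8 CPM to 0.257 and 0.575 CPM (-8.32, SE 0.332). The germ cell poly(A) polymerase gene Papolb fell by 6.81 (SE 0.289) and the mRNA-binding protein gene Ybx2 by 6.1 (SE 0.337). The genes that did not pass were Taf7l (-0.39) and Fhl5 (1.26).

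Markers of germ cell stages and of somatic cells differed between the genotypes in both directions, and their part in the Tssk values was not tested. Of all genes tested, 34.3% were called lower and 29.2% higher. Of 17 tested pachytene spermatocyte markers 16 fell, with a median of -6.96, below the log2 fold change of every tested Tssk gene. Of 13 tested spermatid markers 12 fell, with a median of -5.31, or -4.98 if the 3 genes without a count in cKO are placed at their bounds. All of these 13 but Tex101 and Spaca1 passed the filter on low counts through the wild-type libraries alone, as did the pachytene markers Pgk2, Prps1l1 and Meikin. Such genes can hardly be anything but lower, so the number and median of the spermatid markers describe them and support nothing more. Tnp1, Prm1, Tnp2 and Prm2 were not tested. The listed spermatid markers summed to 571.6 and 665.7 CPM in wild type and to 37.4 and 54.0 CPM in cKO. Tex101, known also from spermatocytes, made up 487.6 and 579.5 CPM of the wild-type sums. Among 14 spermatogonial markers 8 rose and 2 fell, with a median of 0.90, and 0 rose and 5 fell relative to the Sertoli cell markers. Of the 8 that rose, Nanos2 passed the filter through the cKO libraries alone. It had 6 and 3 counts in wild type and 18 and 28 in cKO, and could hardly be anything but higher. Of the somatic lists, 23 of 24 Sertoli, 6 of 9 Leydig and 11 of 12 peritubular, endothelial and macrophage markers rose, with medians of 1.31, 1.22 and 1.19. Relative to the Sertoli cell markers, 4, 1 and 0 rose. That scale was set by the same Sertoli list, so the drop from 23 to 4 follows from the scaling and is no result.

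**Figure D5:**
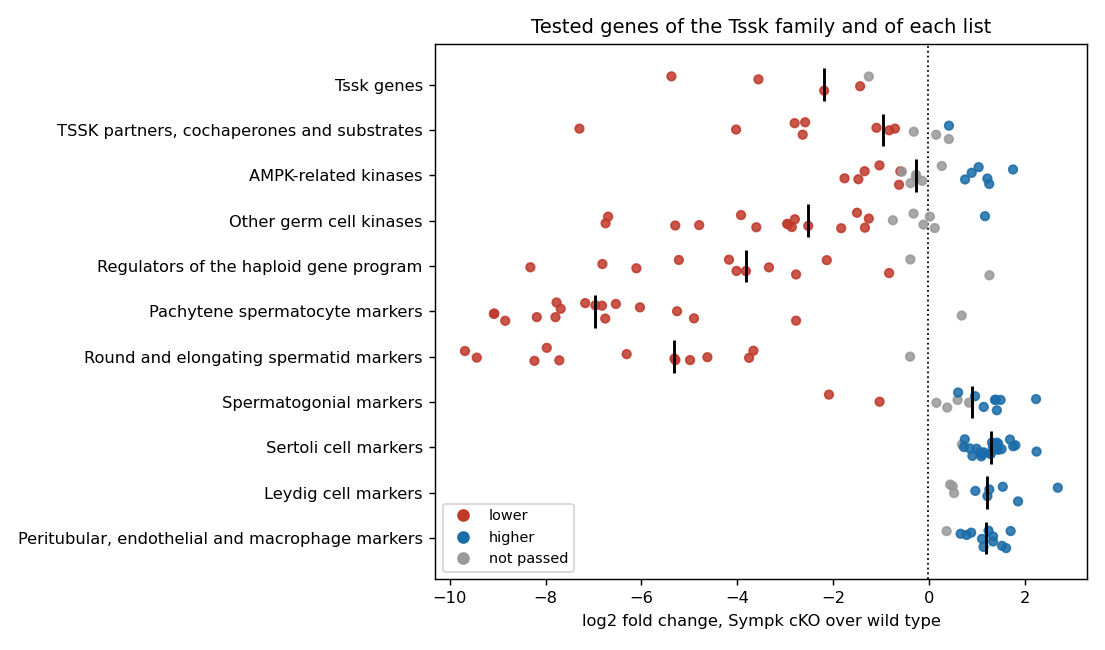
Each point is a tested gene, placed by its log2 fold change of cKO over wild type and coloured by its call, with a bar at the median of each list and a dotted line at the median of all tested genes. The tested Tssk genes lie above the median of the pachytene markers (-6.96) and below the medians of the somatic lists, which are above 1. Tssk1 and Tssk2 lie within the range of the pachytene markers called lower. Tssk3, Tssk4 and Tssk6 lie above all of those, the highest being Tbpl1 at -2.77. They lie below Hspa1l (0.69), the pachytene marker that did not pass.

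The genes closest in pattern to each tested Tssk gene were found by the distance of log2 CPM, centred over the 4 libraries, with 0.1 CPM added. For Tssk1 they were Myl10, Nup210l and Foxh1 (distances 0.0353 to 0.107), for Tssk2 Fbxo30, Aspa and Park2 (0.0465 to 0.0800), and for Tssk3 Cacna1h, Celf3 and Adgrf3 (0.0831 to 0.173). For Tssk4 they were Ihh, Zbtb5 and Ppp4r3b (0.0656 to 0.124) and for Tssk6 Rhox11-ps2, Glt28d2 and Khdrbs2 (0.162 to 0.186). With 4 libraries in 2 groups, many genes share such a pattern, and the added 0.1 CPM weighs on the low members.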

How the data were processed

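RNA of whole testes at postnatal day 18 was sequenced in 4 libraries, 2 wild type and 2 Sympk cKO. Paired-end libraries were made with a TruSeq RNA kit, per the labels' protocols, and the submitters' processing notes name HISAT2 and the GRCm38 build. Which program counted the reads, on which annotation and with which strand setting is not given in the sources used here. In their table the authors deposited raw read counts per gene and FPKM values, per the file headers. All tests used the counts, and FPKM served for levels only.

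Genes were filtered with filterByExpr (minimum count 10), scaled with TMM and tested for genotype alone with edgeR 4.0.16 (R 4.3.3, quasi-likelihood, two-sided, Benjamini-Hochberg over 21822 genes, threshold 0.05). A count of 0 was given a floor of 3 counts per library, 0.0700 to 0.0844 CPM. Ratios and shares have exact 95% binomial intervals. Identity and motifs were computed with Biopython 1.88. The procedure was tested on simulated data.

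The replicates of each group differed far beyond sampling noise (chi-square per gene 51.1 and 24.2), and all 4 libraries were kept. This value cannot tell different animals from separate preparations of the same tissue. The alternatives tried were DESeq2 1.42.0, a replicate block, limma-voom 3.58.1, RLE factors, library totals, scaling to Sertoli cell markers, other filters and each library left out. The members, lists and rules were chosen with earlier results of these data known. Named were all Tssk genes, Sympk, their overlapping neighbours, all partners, up to 3 called genes of each list in its main direction and 1 in the other with a mean of at least 1 CPM, and the 3 genes nearest in pattern to each tested member. Genes within 10 kb were added beside them, and other genes were named after their values were seen.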

Additional observations from a re-analysis of the deposited data

How the results depend on the processing

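The 67 fold changes of single Tssk genes under the alternatives all kept their direction. The number of Tssk genes called lower was 3 to 4 with 1 library left out, and 2 with a mean of at least 1 CPM, where 2 were tested. The replicate numbers share no stated source (deviations of same-numbered libraries correlated at -0.0813 across genes). Under the replicate block 4 Tssk genes were called lower, as without it, and partners called higher went from 1 to 0.

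The partners called higher numbered 2 with limma-voom, 2 with library totals and 0 with Sertoli scaling, and ran from 0 to 2 with 1 library left out. For the haploid regulators called higher, library totals gave 1 and leaving out 1 library 0 to 1, against 0. For the pachytene markers called higher, limma-voom, library totals and a mean of at least 1 CPM each gave 1, against 0. Library totals moved the median of all genes to 0.20 and Sertoli scaling moved it to -1.14. Sertoli scaling gave 12 lower and 0 higher AMPK-related kinases, 0 higher among other germ cell kinases, and 5 lower and 0 higher spermatogonial markers. Of the Sertoli markers, which set this scaling themselves, 4 were called higher. Sertoli scaling also gave 1 lower and 1 higher Leydig marker, and 2 lower and 0 higher peritubular, endothelial and macrophage markers. It gave 12998 lower and 502 higher genes in all, against 7477 and 6368, and library totals gave 6423 and 7651. The wild-type rank by level differed from that by deposited FPKM for 4 genes by counts alone and for 4 per kilobase of merged exons. With 5 to 44 cKO counts summed per tested member, counting error limits the precision of their folds.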
